A study of Homo sapiens with 6 samples.

Results

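Caveolae are small flask-shaped pits of the plasma membrane. The 9 genes described here encode their coat and the proteins that bend or hold them, and were taken by symbol from the 40488 Ensembl genes of the deposited table: the caveolins CAV1, CAV2 and CAV3, the cavins CAVIN1, CAVIN2 and CAVIN3, and the membrane-shaping proteins EHD2, PACSIN2 and PACSIN3. All 9 were found. RNA was measured in SCC90 cells, an established cell line grown from a base-of-tongue tumor with HPV16, in 3 libraries of cells that received an siRNA against ΔNp63 (siDNp63) and in 3 libraries of cells that received a scrambled siRNA (siCTRL). Both siRNAs were delivered with a lipid transfection reagent, the labels give 10 nM for the one against ΔNp63 (the study's methods state a different concentration), and RNA was taken 72 h later. All 6 libraries came from 1 cell line, and no source used here says that the replicates were separate cultures, so p-values measure the spread between these libraries only. The study asked which transcriptional program ΔNp63, the p63 isoform that marks basal squamous cells, controls in these cells.

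Caveolin proteins insert a hairpin into the inner face of the membrane and assemble into discs, and the cavins join them at the cell surface to form the coat. CAV1 is needed for caveolae outside muscle, CAV2 associates with CAV1 and depends on it to reach the surface, and CAV3 is the muscle form. CAVIN1 is needed for the coat, while CAVIN2 and CAVIN3 modify its shape and its signalling partners. EHD2 is an ATPase at the caveolar neck that keeps caveolae at the surface, and PACSIN2 and PACSIN3 are F-BAR proteins that bend the membrane. Caveolae are known for buffering membrane tension and for holding signalling receptors, and are most abundant in fat, endothelial, muscle and fibroblast cells.

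The strands listed for the siRNA against ΔNp63 are shown, with the longest stretch found in any annotated TP63 transcript in capitals. The scrambled siRNA of siCTRL is not shown. As listed, the 2 strands are not complements of each other.
Listed as sense: ACGAGGAGCCGTTCTaatc
Listed as antisense: ACCTGGAAAACAATGCCCAGA
All 21 bases of the strand listed as antisense were found as written in TP63 transcripts, and of the strand listed as sense bases 1 to 15 were found, as the reverse complement. Searched in both directions against the annotated transcripts of the 9 caveola genes, the strand listed as sense shared at most 11 bases in a row and the strand listed as antisense at most 10. For CAV1 the longest shared stretch was 8 bases for either strand.

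Promoter windows of the 4 genes that fell are shown with every CATG, the core letters of the sites that p63 binds, in capitals. Each window runs from 250 bases before to 50 bases after a transcription start, taken from RefSeq on GRCh38.p14. Every window of CAV2, CAVIN2 and EHD2 is printed, and of the 3 CAV1 windows the one that holds a CATG, since the other 2 hold none.
CAV1, chr7:116524786-116525085, plus strand: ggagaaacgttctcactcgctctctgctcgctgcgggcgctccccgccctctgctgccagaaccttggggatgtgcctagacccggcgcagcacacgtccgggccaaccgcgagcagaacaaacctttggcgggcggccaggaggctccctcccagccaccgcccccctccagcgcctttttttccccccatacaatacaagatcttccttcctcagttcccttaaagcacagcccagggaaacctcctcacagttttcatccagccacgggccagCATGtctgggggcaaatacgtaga
CAV2, chr7:116499488-116499787, plus strand: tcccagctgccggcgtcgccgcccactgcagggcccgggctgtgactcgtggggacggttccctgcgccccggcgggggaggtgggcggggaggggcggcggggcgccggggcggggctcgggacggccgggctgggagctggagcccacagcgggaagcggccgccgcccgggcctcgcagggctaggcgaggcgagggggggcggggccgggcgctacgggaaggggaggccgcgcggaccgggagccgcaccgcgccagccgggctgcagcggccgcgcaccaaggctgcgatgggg
CAV2, chr7:116499796-116500095, plus strand: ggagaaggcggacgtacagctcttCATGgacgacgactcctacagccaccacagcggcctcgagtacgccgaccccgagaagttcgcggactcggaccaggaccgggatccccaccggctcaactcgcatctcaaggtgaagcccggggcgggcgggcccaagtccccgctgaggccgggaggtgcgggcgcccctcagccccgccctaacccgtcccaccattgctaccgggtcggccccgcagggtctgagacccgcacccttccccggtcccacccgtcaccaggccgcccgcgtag
CAVIN2, chr2:191847039-191847338, minus strand: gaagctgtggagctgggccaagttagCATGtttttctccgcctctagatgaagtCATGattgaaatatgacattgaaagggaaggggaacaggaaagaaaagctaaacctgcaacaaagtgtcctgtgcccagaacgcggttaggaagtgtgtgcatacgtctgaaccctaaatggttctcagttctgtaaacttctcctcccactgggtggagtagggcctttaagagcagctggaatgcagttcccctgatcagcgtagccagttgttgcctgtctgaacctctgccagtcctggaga
EHD2, chr19:47713172-47713471, plus strand: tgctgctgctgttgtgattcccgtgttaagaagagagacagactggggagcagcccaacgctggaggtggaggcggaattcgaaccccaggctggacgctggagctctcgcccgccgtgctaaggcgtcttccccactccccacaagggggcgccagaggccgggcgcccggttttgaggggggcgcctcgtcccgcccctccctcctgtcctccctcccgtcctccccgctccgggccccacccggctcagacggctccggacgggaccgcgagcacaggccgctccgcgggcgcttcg
Promoter windows were matched for 6 of the 9 genes, 14 windows in all, but not for CAVIN1, CAVIN3 and PACSIN3. Some windows of the same gene overlap, above all those of PACSIN2, so the windows are not separate promoters. CATG, which reads the same on both strands, was present in 8 of the 14, some of which share the same site. Over all 35116 RefSeq promoter windows of 300 bases, 54.9% held it. A pair of CATG separated by 6 bases of any kind, the core of a full site, was in 0 of the 14 windows and in 0.373% of all windows. The CAV2 windows were 82.7% and 71.0% G or C and the CAVIN2 window 49.3%, against a median of 58.7% over all windows. A match of letters is a description and shows no binding.

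Library totals lay between 35716277 and 52598831 expected counts. Counts were put on a common scale with edgeR's TMM factors (a trimmed mean of log ratios between libraries), and 17257 genes with enough counts were compared between siDNp63 and siCTRL with edgeR's quasi-likelihood test, Benjamini-Hochberg adjusted over all of them. Adjusted p below means this value unless another test is named, and a log2 fold change below 0 means a lower level in siDNp63. TP63 was 121, 113 and 123 TPM (a level normalized for transcript length and library total) in siDNp63 libraries, against 353, 368 and 364 TPM in siCTRL libraries (log2 fold change −1.52, adjusted p = 7.59e-07). On the second principal component siDNp63 replicate 1 lay at 44.8, apart from siDNp63 replicates 2 and 3 at −29.5 and −32.9, so results that turn on it are given without it too. Mitochondrial genes took 3.83 to 3.99% of counts in siDNp63 and 3.69 to 3.89% in siCTRL. Of the squamous epithelial markers EPCAM, CDH1, KRT5, KRT14, KRT6A, KRT17, TP63, DSG3 and SFN all 9 were tested. At an adjusted p under 0.05, 6 of them rose and 1 (TP63) fell, beside 18.4% and 15.2% of all genes tested. Their summed level was 5650 to 5743 TPM in siDNp63 and 4814 to 4866 TPM in siCTRL. KRT6A had 3565 to 3814 TPM in siDNp63 and 3038 to 3123 TPM in siCTRL, while the basal keratins KRT5 (4.12 to 7.33 TPM in siDNp63, 6.10 to 8.24 TPM in siCTRL) and KRT14 (1.41 to 1.59 TPM in siDNp63, 0.374 to 0.780 TPM in siCTRL) were low.

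Of the 8 caveola genes with enough counts to be tested, 4 fell (CAV1, CAV2, CAVIN2 and EHD2), 1 rose (CAVIN3) and 3 did not pass the test (CAVIN1, PACSIN2 and PACSIN3). Of all genes tested, 15.2% fell and 18.4% rose at the same threshold, 33.6% in either direction. CAV1 and CAV2 also passed an absolute log2 fold change over 1, as did 1.71% of all genes in the lower direction, and no caveola gene did so in the higher direction, against 2.35% of all genes. The 2 groups did not overlap, with siDNp63 lower, for CAV1, CAV2, CAVIN2 and EHD2, which happened for 24.7% of all genes, and did not overlap, with siDNp63 higher, for CAVIN1 and CAVIN3, which also happened for 24.7% of all genes (49.4% in either direction). The median log2 fold change was −0.43 over the 8 caveola genes and −0.02 over all genes tested. Because the RNA came from whole cultures, fewer cells that express a gene and less of its RNA per cell cannot be told apart.

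**Figure D1:**
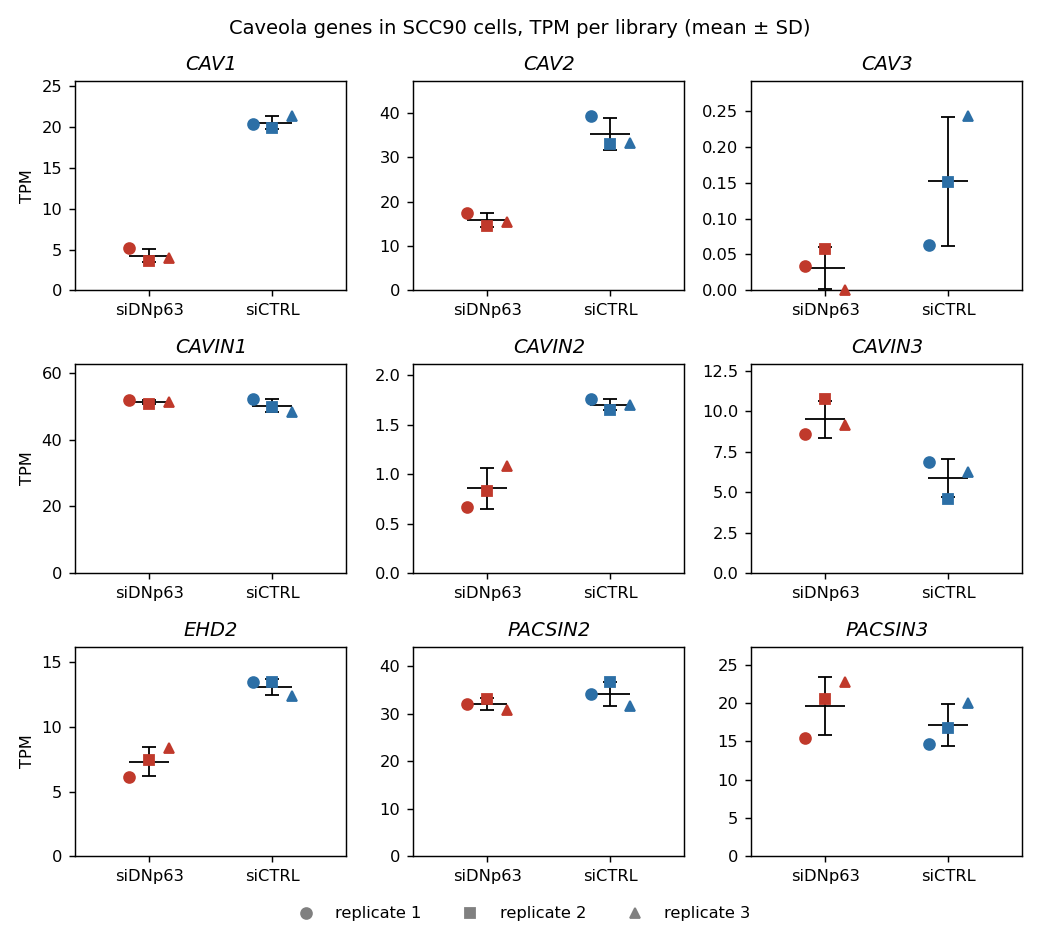
TPM of the 9 caveola genes in each library, with siDNp63 in red on the left of each panel and siCTRL in blue on the right, replicates 1 to 3 as circles, squares and triangles, and the mean ± SD (n = 3) in black; each panel has its own axis from 0. CAV1, CAV2, CAVIN2 and EHD2 lie lower in every siDNp63 library than in any siCTRL library, CAVIN3 lies higher, and CAV3 stays below 0.25 TPM.

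CAV1, the main structural protein of the coat outside muscle, showed the largest change of the tested caveola genes. Its level was 5.13, 3.61 and 3.93 TPM in siDNp63 libraries, against 20.4, 19.8 and 21.4 TPM in siCTRL libraries. Every siDNp63 library was thus far below every siCTRL library. In TMM-normalized counts CAV1 averaged 196 ± 8.59 in siDNp63 and 938 ± 72.0 in siCTRL (SD, n = 3 each), so that 20.9% of the siCTRL level remained (log2 fold change −2.26, 95% interval −2.46 to −2.06, adjusted p = 2.93e-06). The gene (ENSG00000105974) lies on chromosome 7 from 116524994 to 116561179 of GRCh38 on the plus strand. Its estimated counts were whole numbers in all 6 libraries within 0.01.

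CAV2, which forms mixed complexes with CAV1, fell by a smaller amount. It stood at 17.5, 14.5 and 15.5 TPM in siDNp63 libraries, against 39.3, 33.0 and 33.3 TPM in siCTRL libraries, without overlap. Its normalized count averaged 748 ± 65.2 in siDNp63 and 1681 ± 58.1 in siCTRL (SD, n = 3 each), which left 44.4% (log2 fold change −1.17, 95% interval −1.34 to −1.01, adjusted p = 1.55e-05). Without siDNp63 replicate 1 its log2 fold change was −1.24 and that of CAV1 −2.29. CAV3, the caveolin of heart and skeletal muscle, was near the detection limit, with 1, 1 and 0 counts in siDNp63 libraries and 1, 2 and 3 counts in siCTRL libraries. It was left out by the filter, and no fold is given for it because no library exceeded 3 counts.

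The balance of CAV1 to CAV2 was lower in every siDNp63 library. CAV1 TPM divided by CAV2 TPM was 0.293, 0.248 and 0.254 in siDNp63 libraries, against 0.518, 0.602 and 0.642 in siCTRL libraries. CAV1 made up 19.8 to 22.6% of the summed caveolin TPM in siDNp63 and 34.1 to 38.9% in siCTRL. The 2 ratio groups did not overlap, and the two-sided exact permutation test gave p = 0.1, the smallest that 3 against 3 libraries allow. This ratio was 1 of 3 tested, all chosen after the values had been seen, and each exact permutation p was at that limit, before and after Benjamini-Hochberg adjustment (0.1).

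**Figure D2:**
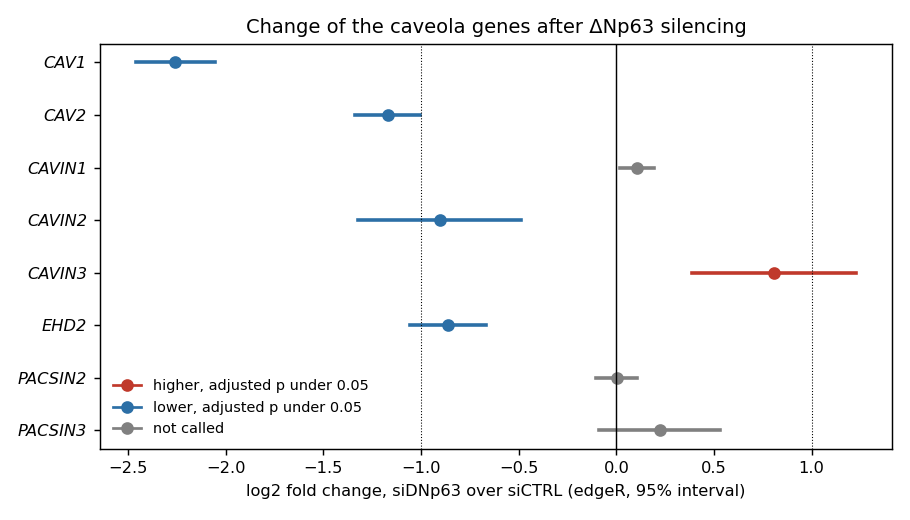
Log2 fold change of the 8 tested caveola genes, siDNp63 over siCTRL, as points with 95% intervals from edgeR, blue for lower and red for higher at an adjusted p under 0.05 and gray for genes that did not pass, with dotted lines at −1 and 1. CAV1 lies at −2.26 and CAV2 at −1.17 with intervals below −1, CAVIN2 and EHD2 have intervals that span −1, and CAVIN3 is at 0.81 while CAVIN1 is at 0.11.

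The 3 cavins gave 1 lower, 1 higher and 1 that did not pass. CAVIN1, the cavin without which caveolae do not form, was the most abundant caveola gene, with 51.7, 50.7 and 51.3 TPM in siDNp63 libraries, against 52.2, 49.9 and 48.4 TPM in siCTRL libraries. These TPM ranges overlap. Its normalized counts were 5283, 5253 and 5140 in siDNp63 libraries, against 5020, 4831 and 4717 in siCTRL libraries, and did not overlap. The log2 fold change of 0.11 (95% interval 0.02 to 0.19) did not pass the test (adjusted p = 0.0697).

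CAVIN2, which senses and helps to bend the membrane, was the least abundant tested member. It reached 0.666, 0.829 and 1.08 TPM in siDNp63 libraries, against 1.76, 1.65 and 1.69 TPM in siCTRL libraries. All siDNp63 libraries were below all siCTRL libraries, and their own spread was wide, with 57.6, 72.8 and 91.6 normalized counts in siDNp63 libraries, against 143, 135 and 140 in siCTRL libraries. The log2 fold change was −0.91 (95% interval −1.32 to −0.49, adjusted p = 0.00621). It was −0.76 without siDNp63 replicate 1, the lowest library, and −1.09 without siDNp63 replicate 3, where it passed the fold change threshold and brought the count past both thresholds to 3. At an adjusted p under 0.005 CAVIN2 was no longer called.

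CAVIN3, which is bound by protein kinase C delta, was the one caveola gene that rose. Its level was 8.58, 10.8 and 9.14 TPM in siDNp63 libraries, against 6.85, 4.60 and 6.23 TPM in siCTRL libraries. The groups were separate, though the nearest libraries, siDNp63 replicate 1 and siCTRL replicate 1, were close. Normalized counts averaged 224 ± 32.9 in siDNp63 and 128 ± 26.4 in siCTRL (SD, n = 3 each), or 1.75-fold (log2 fold change 0.81, 95% interval 0.39 to 1.23, adjusted p = 0.0109). At an adjusted p under 0.005 it was no longer called. A long non-coding gene on the other strand shares 571 exonic bases with it and is not analysed here. The quantification is described as run with default options, with no strand setting named, so reads from the 2 strands cannot be told apart there. The same holds for CAVIN2 and an antisense gene that shares 238 bases with it.

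Cavin totals were close in the 2 groups, while caveolin totals were far apart. Summed cavin TPM was 61.0, 62.3 and 61.5 in siDNp63 libraries, against 60.9, 56.1 and 56.3 in siCTRL libraries, and CAVIN1 supplied 81.4 to 84.8% of it in siDNp63 and 85.9 to 88.9% in siCTRL. Summed caveolin TPM was 22.7, 18.2 and 19.4 in siDNp63 libraries, against 59.8, 52.96 and 54.9 in siCTRL libraries. Cavin transcripts stood at 2.69 to 3.42 times the caveolin transcripts in siDNp63, against 1.02 to 1.06 times in siCTRL. The ratio of CAVIN3 to CAVIN1 was 0.166, 0.212 and 0.178 in siDNp63 libraries, against 0.131, 0.0923 and 0.129 in siCTRL libraries (two-sided exact permutation p = 0.1, the limit of the design).

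**Figure D3:**
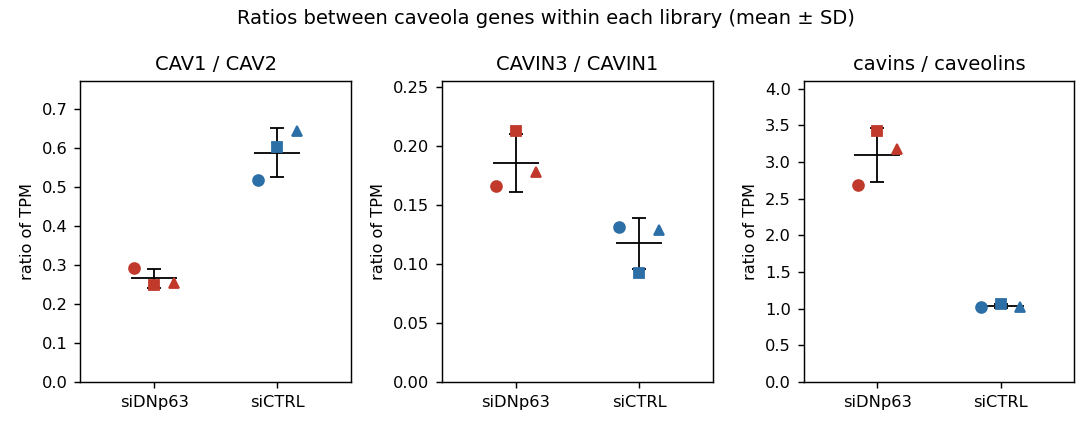
Ratios of TPM within each library, CAV1 to CAV2, CAVIN3 to CAVIN1 and summed cavins to summed caveolins, with siDNp63 in red on the left, siCTRL in blue on the right, replicates 1 to 3 as circles, squares and triangles, and the mean ± SD (n = 3) in black. The CAV1 to CAV2 ratio lies below 0.30 in siDNp63 and above 0.51 in siCTRL, and the cavin to caveolin ratio is near 3.09 in siDNp63 and 1.03 in siCTRL.

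EHD2, the ATPase that holds caveolae at the cell surface, fell. It was at 6.10, 7.47 and 8.36 TPM in siDNp63 libraries, against 13.5, 13.5 and 12.4 TPM in siCTRL libraries, with no overlap. Normalized counts averaged 678 ± 73.3 in siDNp63 and 1234 ± 47.1 in siCTRL (SD, n = 3 each), or 55.0% of siCTRL (log2 fold change −0.86, 95% interval −1.06 to −0.67, adjusted p = 1.82e-04). The ratio of EHD2 TPM to CAV1 TPM was 1.19, 2.07 and 2.13 in siDNp63 libraries, against 0.662, 0.678 and 0.581 in siCTRL libraries (two-sided exact permutation p = 0.1). The average length of its transcripts, as the quantification weighted them, was 0.842 of the gene's mean in siDNp63 replicate 3 and 1.02 to 1.05 in the other 5 libraries, and with this length as an offset its log2 fold change was −0.78 (adjusted p = 0.00274). For CAV1 this length was 0.854, 1.09 and 1.04 in siDNp63 replicates 1, 2 and 3, and it enters the TPM ratio. With the offset the log2 fold change of CAV1 was −2.24 (adjusted p = 3.23e-05).

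The F-BAR proteins did not pass the test. PACSIN2, the widely expressed form, had 32.1, 33.1 and 30.8 TPM in siDNp63 libraries, against 34.2, 36.7 and 31.6 TPM in siCTRL libraries, with overlapping ranges. Its log2 fold change was 0.00 (95% interval −0.10 to 0.11, adjusted p = 0.976), with a sign that differed between settings, from −0.09 to 0.02. PACSIN2 shares 155 exonic bases with ARFGAP3 on the same strand. The estimated counts of PACSIN2, CAV2, CAVIN1 and EHD2 were whole in 0 of 6 libraries, so reads of these 4 genes were in part divided by estimate, while those of the other 5 caveola genes were whole in all 6. PACSIN3, the form enriched in muscle, had 15.4, 20.5 and 22.8 TPM in siDNp63 libraries, against 14.6, 16.8 and 19.97 TPM in siCTRL libraries. Its log2 fold change was 0.22 (95% interval −0.09 to 0.53, adjusted p = 0.245). Without siDNp63 replicate 1, whose normalized count was 549 beside 742 and 809 in siDNp63 replicates 2 and 3, it was 0.37 and passed (adjusted p = 0.00358), which brings the number of caveola genes that rose to 2.

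The order of TPM levels differed between the groups. In siDNp63 libraries it ran CAVIN1, PACSIN2, PACSIN3, CAV2, CAVIN3, EHD2, CAV1, CAVIN2 and CAV3, and PACSIN3 and CAV2 were the only neighbours whose libraries overlapped. In siCTRL libraries it ran CAVIN1, CAV2, PACSIN2, CAV1, PACSIN3, EHD2, CAVIN3, CAVIN2 and CAV3, and CAV2 overlapped with PACSIN2 and CAV1 with PACSIN3. CAV1 thus took the seventh place in siDNp63 and the fourth in siCTRL, and CAV2 the fourth in siDNp63 and the second in siCTRL.

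CAV1 and CAV2 are neighbours on chromosome 7 in the same orientation, and their first RefSeq transcription starts are 25.3 kb apart. Of the genes whose annotated start lies within 1000 kb of CAV1, 7 were tested, and beside the 2 caveolins 1 fell and 1 rose. MET, the receptor of hepatocyte growth factor, which follows CAV1 on the chromosome, rose to 21270 ± 1640 normalized counts in siDNp63, against 10449 ± 141 in siCTRL (SD, n = 3 each, log2 fold change 1.03, adjusted p = 1.07e-05). CAPZA2, an actin capping protein subunit further on, fell (log2 fold change −0.27, adjusted p = 9.19e-04). TES, which precedes CAV2 and encodes a focal adhesion protein, had a log2 fold change of 0.08 (adjusted p = 0.155), and ST7 one of 0.16 (adjusted p = 0.0743). In a list of 9 neighbours reaching to MDFIC, 6 were tested, of which 1 rose and 1 fell, near the shares of 18.4% and 15.2% over all genes tested, and MDFIC was at −0.21 (adjusted p = 0.0645). Without siDNp63 replicate 1 the number that fell was 2. The median log2 fold change of these 6 neighbours was 0.03.

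**Figure D4:**
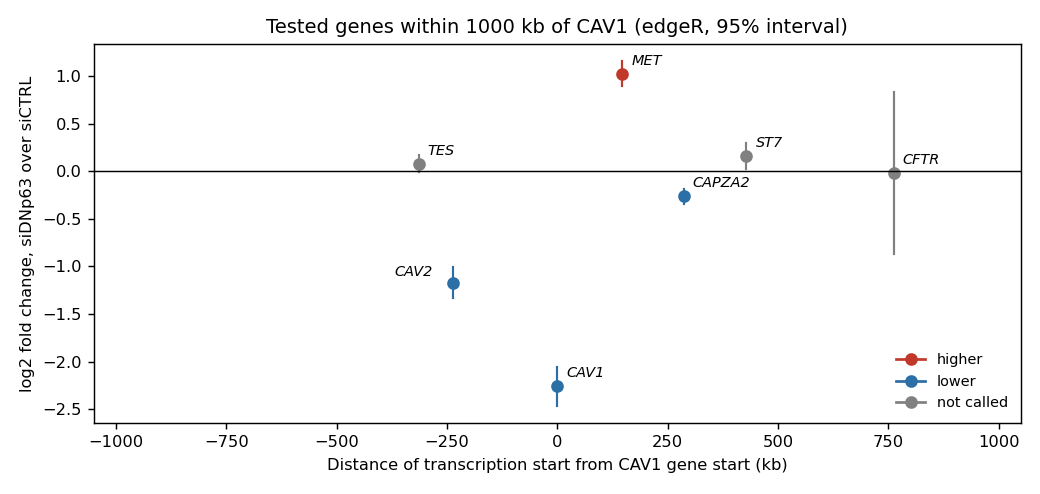
Log2 fold change, siDNp63 over siCTRL, with 95% intervals (edgeR), of the 7 tested genes whose annotated start lies within 1000 kb of the CAV1 gene start, by distance in kb; blue is lower, red higher and gray not called, and CAV2 is drawn at the outermost start of its GENCODE annotation. CAV1 at −2.26 and CAV2 at −1.17 lie far below their neighbours TES at 0.08 and MET at 1.03.

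Among other genes that work with caveolae some rose and some fell. Of 12 accessory genes (CAVIN4, PACSIN1, EHD1, EHD3, EHD4, ROR1, DNM1, DNM2, DNM3, FLNA, NOSTRIN and DLC1), 11 were tested, 3 rose, 3 fell, 5 did not pass, and the median log2 fold change was 0.07. Over all genes tested, 18.4% rose and 15.2% fell. EHD3, a paralogue of EHD2 that acts in endosomal recycling, fell to 580 ± 31.6 normalized counts in siDNp63, against 900 ± 32.2 in siCTRL (log2 fold change −0.63, adjusted p = 3.07e-04). DNM2, the dynamin that cuts vesicles from the membrane, rose (0.27, adjusted p = 0.00424), as did EHD4 (0.16, adjusted p = 0.0291), while the dynamin DNM1 fell (−0.21, adjusted p = 0.0177). EHD1 also rose (0.34), and FLNA, a filamin that ties caveolin to actin, fell (−0.47), though in siDNp63 replicate 1 it stood at 212 TPM beside 316 and 328 TPM in siDNp63 replicates 2 and 3. The number that rose was 1 without siDNp63 replicate 2, siCTRL replicate 2 or siCTRL replicate 3, and the number that fell was 1 without siCTRL replicate 1 or siCTRL replicate 3.

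Flotillins form membrane domains without caveolin, and neither passed the test, with FLOT1 at −0.13 (adjusted p = 0.601) and FLOT2 at −0.06 (adjusted p = 0.644). Among these and their relatives, 8 genes in all (with STOM, STOML1, STOML2, STOML3, PHB1 and PHB2), 2 rose and 2 fell, near the shares of 18.4% and 15.2% over all genes tested, with a median log2 fold change of −0.06. STOML1 (−0.68, adjusted p = 0.00259) and STOM (−0.22, adjusted p = 0.00332) fell, and the prohibitin PHB1 rose (0.15, adjusted p = 0.0365). STOML3 had 21, 20 and 28 counts in siDNp63 libraries, against 0, 1 and 0 in siCTRL libraries. Its ratio of summed counts at equal depth was 69.1 with a 95% interval of 12.0 to 2768 that covers counting error only (exact binomial, conditional on the total), and edgeR gave an adjusted p = 5.44e-04. STOML3 passed the count filter only through the siDNp63 libraries, where it was high, so its place among the genes that rose is a description only. The number that rose was 1 without siDNp63 replicate 2 or any 1 of the siCTRL libraries.

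Receptors and kinases known to bind caveolin or to gather in caveolae included genes that rose and genes that fell. Of 17 tested (SRC, FYN, YES1, LYN, NOS1, NOS3, EGFR, INSR, IGF1R, TGFBR1, TGFBR2, PTGS2, ITGB1, CTNNB1, PRKCA, PRKCD and HRAS), 9 rose and 4 fell, beside 18.4% and 15.2% of all genes tested, with a median log2 fold change of 0.18. Without siDNp63 replicate 1 or siDNp63 replicate 2 the number that fell was 5. Of the Src family kinases, SRC, which phosphorylates caveolin, fell (−0.77, adjusted p = 3.05e-04), to 1335 ± 161 normalized counts in siDNp63, against 2280 ± 49.99 in siCTRL. FYN of the same family rose (0.85, adjusted p = 1.06e-05), to 3177 ± 156 normalized counts in siDNp63, against 1759 ± 11.8 in siCTRL. LYN (0.81, adjusted p = 3.27e-04) and YES1 (0.37, adjusted p = 8.68e-04), also of this family, rose too. EGFR, the epidermal growth factor receptor, fell (−0.77, adjusted p = 9.91e-06), while INSR, the insulin receptor, rose (0.35, adjusted p = 2.61e-04).

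Clathrin provides the other main coat for endocytosis. Of 21 genes of that coat and its adaptors (CLTA, CLTB, CLTC, AP2A1, AP2A2, AP2B1, AP2M1, AP2S1, PICALM, EPN1, EPN2, EPS15, ITSN1, ITSN2, FCHO1, FCHO2, BIN1, AMPH, DAB2, HIP1 and SYNJ1), 7 rose, 2 fell and 12 did not pass, with a median log2 fold change of 0.05, beside 18.4% of all genes that rose and 15.2% that fell. The scaffold ITSN1 (0.80, adjusted p = 7.64e-06) and the adaptor EPS15 (0.80, adjusted p = 1.60e-05) rose, as did the heavy chain CLTC (0.52, adjusted p = 2.83e-05), which averaged 37535 ± 1030 normalized counts in siDNp63 and 26161 ± 487 in siCTRL (SD, n = 3 each). EPN2, an epsin that bends the membrane, fell (−0.69, adjusted p = 6.97e-05). None of the 5 AP2 subunits listed passed the test, and all lay between −0.13 and 0.12. Those that rose include DAB2, which averaged 15.8 ± 2.31 normalized counts in siDNp63 and 6.07 ± 3.01 in siCTRL. It was carried past the count filter by the siDNp63 libraries, so its call is a description only. Without siDNp63 replicate 3 the number that rose was 4.

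Markers of cell types other than squamous epithelium were read beside these results. Over all genes tested, 18.4% rose and 15.2% fell. Of 9 fibroblast markers (COL1A1, COL1A2, COL3A1, DCN, LUM, PDGFRA, PDGFRB, THY1 and FAP), 4 had enough counts to be tested, PDGFRB and FAP were at 0 in all libraries, and the summed level was 5.99 to 9.18 TPM in siDNp63 and 8.86 to 10.9 TPM in siCTRL. Of these 4, DCN, a matrix proteoglycan, fell (log2 fold change −1.32, adjusted p = 0.0284) and the other 3 did not pass. DCN had few counts, 10.7 ± 5.03 normalized counts in siDNp63, against 27.5 ± 6.07 in siCTRL. It was carried past the count filter by the siCTRL libraries, where it was higher, so its fall is a description only. Of 8 endothelial markers (PECAM1, CDH5, VWF, KDR, TEK, CLDN5, ERG and EMCN), 4 were tested and 3 rose, among them KDR (2.36) and PECAM1 (2.39), and the sum was 12.8 to 15.02 TPM in siDNp63 and 3.54 to 4.79 TPM in siCTRL, while CDH5 stayed under 0.12 TPM in every library. The 8 muscle markers (ACTA2, MYH11, CNN1, DES, MYOD1, MYOG, CKM and ACTA1) summed to 2.03 to 3.55 TPM in siDNp63 and 3.55 to 4.43 TPM in siCTRL, with MYOD1 at 0. The 5 adipocyte markers (ADIPOQ, PLIN1, FABP4, LEP and LPL) summed to 0.624 to 1.13 TPM in siDNp63 and 0.285 to 0.453 TPM in siCTRL. Only 3 of the muscle markers and 1 of the adipocyte markers (ADIPOQ) had enough counts to be tested, and none of these passed. CD14, a monocyte marker, fell (log2 fold change −1.26, adjusted p = 0.0329). The endothelial and adipocyte sums were thus higher in siDNp63, the muscle sum was lower but for touching ranges, and the fibroblast ranges overlapped. Their part in the caveola results was not tested.

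Over the 6 libraries the 5 genes whose log2 normalized counts followed those of CAV1 most closely, of 13881 genes with a mean of at least 50, were SLC1A4, CNOT9, PPFIBP2, GBP1P1 and CASP1, with Pearson's r between 0.9992 and 0.9997. These 6 points fall into the 2 groups, and share the same controls and libraries, so r is a description only. The sizes of the falls were unlike, from −0.25 for PPFIBP2 to −2.74 for CASP1 on the log2 scale.

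The direction of every caveola gene that passed the test was the same in all 16 other fits, which are drawn in the plot of fold changes by setting. CAV1 lay between −2.34 and −2.05, CAV2 between −1.26 and −1.09, EHD2 between −0.95 and −0.77, CAVIN2 between −1.09 and −0.55 and CAVIN3 between 0.62 and 0.94. The value nearest to 0 for CAVIN2 came from TPM with 1 added before the logarithm, which compresses genes at this low level. With library totals as the sole scaling the median of all genes was −0.11, where TMM gave −0.02, and 36.1% of the genes that passed were higher, where TMM gave 54.7% and limma on log2(TPM + 1) gave 41.5%.

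**Figure D5:**
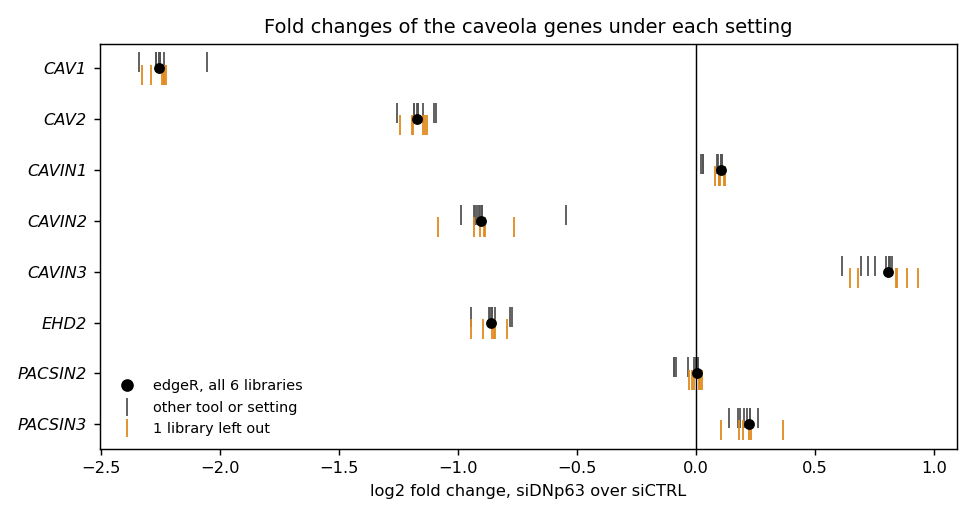
Log2 fold change of the 8 tested caveola genes, siDNp63 over siCTRL, in the edgeR fit of all 6 libraries (black points), under other tools and settings (dark ticks above) and with 1 library left out (orange ticks below). CAV1, CAV2, CAVIN2 and EHD2 stay below 0 and CAVIN3 above 0 throughout, while the ticks of PACSIN2 fall on both sides of 0.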

How the data were processed

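RNA of 6 libraries of SCC90 cells was analysed. According to the submitters' processing notes and the methods, base calls were handled by bcl2fastq 2.17.1.14, and reads were quantified on hg38 with kallisto 0.46.2 at default options, from single-end reads of stranded poly(A) libraries. For the annotation, the release was not given in the sources used here. Expected counts (estimated counts) per Ensembl gene were deposited by the authors with no scaling across libraries. TPM was deposited beside them, in which the authors' quantification divides by effective transcript length and sets every library to the same total. Both were used for all 6 libraries.

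Of 40488 genes, 35538 matched a gene name table. Positions and transcripts are GENCODE's for GRCh38. Expected counts were rounded, filtered with filterByExpr of edgeR 4.0.16 (minimum count 10), scaled by TMM and fitted on the whole table by the quasi-likelihood test with group as the only term. Standard errors and 95% intervals were derived from the test statistic. Depth limits genes with few counts, and intervals on counts cover counting error only. TPM values compare levels between genes. The test was also run on simulated counts in which a far smaller share of genes was changed than passed here. That run therefore cannot show how the test performs on these data.

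Groups came from the sample titles. The members and lists were chosen with earlier results of these data known. Named were all members, TP63, up to 4 genes of smallest p per list, and the 5 genes most like CAV1. EHD1, FLNA, LYN, YES1, FLOT1, FLOT2, TES, the AP2 subunits and the cell type markers named were chosen after their values were seen. Alternatives were DESeq2 1.42.0, limma-voom and limma 3.58.1 on log2(TPM + 1) and log2(TPM + 0.1), other scalings and filters, a transcript length offset, a replicate block, a stricter threshold and leaving out each library. A further marker list is not reported here.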

Additional observations from a re-analysis of the deposited data

How the results depend on the processing

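Of the 8 caveola genes tested, CAV1, CAV2, CAVIN1, CAVIN2, CAVIN3, EHD2 and PACSIN2 stayed on their side of the threshold in all 16 other fits. PACSIN3 passed in 1 of them, without siDNp63 replicate 1 (log2 fold change 0.37). With 1 library left out, 1 to 2 caveola genes rose, 4 fell and 2 to 3 passed both thresholds. At an adjusted p under 0.005, 0 caveola genes rose by edgeR (1 at 0.05, CAVIN3). The number that fell was then 3 in place of 4, without CAVIN2 (adjusted p = 0.00621).

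Accessory genes that rose numbered 1 in place of 3 with library size only, with the transcript length offset, with limma on TPM at either pseudocount and at an adjusted p under 0.005, where 1 fell. With 1 library left out, 1 to 3 rose and 1 to 3 fell. Flotillin and stomatin genes that rose numbered 1 in place of 2 with DESeq2, library size only, no filter, limma on TPM, the replicate block and the stricter p. They numbered 0 with at least 10 counts in every library, a filter that leaves STOML3 out, and 1 to 2 with 1 library left out. Signalling partners that rose numbered 3 and 5 in place of 9 with limma on log2(TPM + 1) and log2(TPM + 0.1). Clathrin genes that rose numbered 4 in place of 7 with the length offset, limma on TPM and the stricter p, where 1 fell in place of 2, and 4 to 8 with 1 library left out. Neighbours of CAV1 that fell numbered 2 in place of 1 with library size only, at least 10 counts in every library and the replicate block, and 1 to 2 with 1 library left out.

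Over all genes, 3177 rose and 2626 fell. Limma on log2(TPM + 1) and log2(TPM + 0.1) gave 1668 and 1678 that rose, the stricter p gave 1767 that rose and 1137 that fell, and library size only gave 4117 that fell. With 1 library left out, 2456 to 3645 rose and 1908 to 3238 fell. The cause of these differences was not tested.

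Replicates that share a number did not deviate together (correlations of −0.00367, 0.0179 and 0.0243). With 3 libraries per group, centred on their own mean, this cannot decide whether the numbers pair the libraries. With the replicate number as a block, 2777 genes rose and 2175 fell, and the counts of caveola genes that rose and fell were 1 and 4 as without it.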
